A study of Zea mays with 3 samples.

Results

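RNA from maize anthers of 1.0 mm was compared between a Mu-active and a Mu-inactive line on 4 two-channel arrays, and the ratio of the lines is described across all 42034 maize probes of the array. These are 4 of the 12 arrays of the experiment, and the other 8 hold anthers of 1.5 mm and 2.0 mm from the same kinds of line. The probes were chosen by the array design alone, as the spots that are not controls. On each array 1 dye carried the Mu-active line and the other the Mu-inactive line, and the dyes were exchanged between arrays 1 and 2 and arrays 3 and 4. The labels name the lines only by their Mutator activity. Plants were field grown, untreated, and by the study's methods each biological replicate pools staged anthers of one tassel. The labels do not say that the 4 replicates of a line came from separate plants, so p-values measure the spread between arrays. All 4 arrays lay on 1 slide, and anther length and slide cannot be told apart.

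Mutator (Mu) elements are a family of DNA transposons in maize. The autonomous element MuDR encodes the transposase MURA from mudrA and a helper protein, MURB, from mudrB, and the other Mu elements share its terminal inverted repeats and are mobilized by it. In Mu-active lines MuDR is transcribed and elements transpose, whereas in inactive lines MuDR is lost or silenced. Anthers of 1.0 mm hold the archesporial cells, which become the pollen mother cells, surrounded by the somatic layers of the lobe (tapetum, middle layer, endothecium and epidermis).

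The labels list the dyes of replicates 1 to 4 but do not give the array of each. If replicate numbers were array numbers, every array would carry its lines on the opposite dyes. The direction was therefore set by intensities that a supplementary table names by line. The sign of the ratio between its lines was the same as here for 996 of 1071 probes. The deposited log2 ratios, whose direction is not stated, ran the same way, with a Pearson correlation of 0.991 over 33108 probes, which are not independent replicates. The direction is likely on this basis only, and if the replicate numbers were array numbers every sign below would turn. All ratios are log2 values with Mu-active on top, and errors are SE from the limma fit of the 12 arrays unless stated.

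Few transcripts differed. Of the 42034 probes, 158 (0.376%) were called at an adjusted p under 0.05 (limma, Benjamini-Hochberg over all probes). In the Mu-active line 116 probes (0.276%) were higher and 42 (0.0999%) were lower. At the unadjusted threshold of the methods, a 1.5-fold change with a p of at most 0.05, 533 probes (1.27%) were higher and 384 (0.914%) lower. The median ratio over all probes was -0.00. A change of at least 2-fold was fitted at 423 probes, of which 223 had 1 sign in all 4 arrays and 65 were called. Among the called probes the median size of the ratio was 0.81, the smallest was 0.25, and 65 were changed at least 2-fold, 49 of them higher and 16 lower. All 158 were ON in at least one line (above the negative controls by 3 SD in at least 3 of 4 arrays), and 156 had the same sign in all 4 arrays. Of all 42034 probes, 32598 were ON in at least one line and 5851 had the same sign in all 4 arrays. The calls rest on these same ratios, so their shared sign is not separate support. The count rests on a fit that borrows its spread from the later anthers. With the 4 arrays of 1.0 mm alone and a dye term, 16 probes were higher in the Mu-active line and 12 were lower, and 8 and 4 of these were among the 158. Over 15 alternative fits the median called probe kept its call in 6. With each 1.0 mm array left out in turn, 30 of the 158 stayed called every time.

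**Figure D1:**
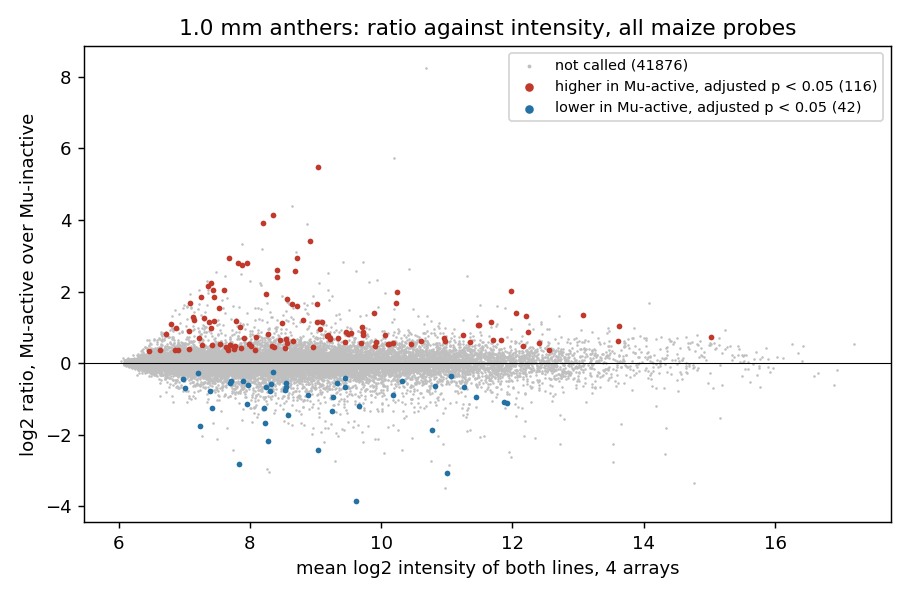
Fitted log2 ratio, Mu-active over Mu-inactive, at 1.0 mm (vertical) against the mean log2 intensity of both lines (horizontal), 1 point per probe. The 116 probes called higher in the Mu-active line (red) and the 42 called lower (blue) stand among 41876 not called (gray), of which the highest has a ratio of 8.26.

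Calls were concentrated among the brighter probes. With the probes split by intensity into 5 bins of equal size, from the dimmest to the brightest, 0, 1, 13, 61 and 83 were called. The spread did not fall with brightness, since the median SE of the ratio was 0.051 in the dimmest and 0.16 in the brightest bin. The normalized intensities were ON in 30747 to 35646 probes per array in the Mu-active channel and 31030 to 33635 in the Mu-inactive channel. No spot was saturated.

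The largest fitted ratio among the called probes was that of A_92_P008677 (AW331071), whose annotation is a weak similarity to an Arabidopsis mRNA product. Its normalized intensity was 3162, 6985, 3685 and 1880 in the Mu-active line on arrays 1 to 4, against 69.4, 60.7, 95.8 and 96.5 in the Mu-inactive line. All 4 Mu-active values were far above all Mu-inactive ones, which lay near the ON cutoffs of 78.7 to 85.1. In the Mu-inactive line the probe was ON on arrays 3 and 4 only and well above background on 2 of 4 arrays, so the size of the ratio rests on a signal close to background. The log2 ratio was 5.48 ± 0.74 (n = 4 arrays, limma adjusted p = 0.0200). In the later anthers the ratio was -1.12 at 1.5 mm and 1.26 at 2.0 mm, neither of them called. A single array carried the value at 2.0 mm, where the 4 arrays gave 0.62, -0.24, 4.44 and 0.23.

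GRMZM2G093902 (A_92_P002819) carries an annotation of similarity to ribosomal protein S3 of the small cytosolic subunit, which takes part in mRNA entry at the ribosome. Its normalized intensity was 1020, 1220, 1068 and 1316 in the Mu-active line, against 64.8, 57.3, 91.0 and 97.97 in the Mu-inactive line. The Mu-active values varied little and did not overlap with the Mu-inactive ones. The ratio was 3.92 ± 0.64 (limma adjusted p = 0.0426). The probe was not well above background in the Mu-inactive line on any of the 4 arrays, so only a bound is measured there. The Mu-active line was at least 14.8-fold higher on the scale of the fit and at least 20.5-fold higher after loess with Aquantile. Such bounds set the mean of the bright line against the lowest signal well above background on each array, or the probe's own where that is higher, and they move with the scale. No other of the 43 probes in the list of ribosomal proteins was called, where 0.376% of all probes were called. The list's median ratio was 0.01. It is built from annotation words and leaves out GRMZM2G043737, described below. That gene is annotated with a domain of the small ribosomal subunit and was called. The array probes of AW331071 and GRMZM2G093902 are given here because they define which sequence was measured, and because AW331071 has no gene model in the tables used. They are 60-base probes from the study's probe annotation, written 5′ to 3′.
A_92_P008677 (AW331071): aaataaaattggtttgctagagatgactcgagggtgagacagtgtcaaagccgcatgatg
A_92_P002819 (GRMZM2G093902): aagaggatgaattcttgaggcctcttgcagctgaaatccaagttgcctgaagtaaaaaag

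Most of the other large increases fell on contigs without a protein annotation in the tables used. The same holds for most of the array, where 3842 of 42034 probes had an annotation. A_92_P013662 (TC282493) had 1781, 631, 1844 and 1704 in the Mu-active line, against 67.5, 60.2, 93.9 and 98.4 in the Mu-inactive line. Its ratio of 4.13 ± 0.27 (limma adjusted p = 0.000355) was present on every array. A_92_P008366 (TC293031) had the smallest p of all probes. It was 468, 395, 1159 and 883 in the Mu-active line and 87.1, 77.7, 108 and 109 in the Mu-inactive line, without overlap, and its ratio was 2.80 ± 0.12 (limma adjusted p = 2.17e-05). Both Mu-active values of arrays 3 and 4 were above those of arrays 1 and 2. A_92_P035526 (TC286409) had a ratio of 2.80 ± 0.27, with 567 to 644 in the Mu-active line against 73.7 to 97.9 in the Mu-inactive line. The Mu-inactive values of TC282493, TC293031 and TC286409 lay near the ON cutoffs of that line, 81.1 to 84.7. The size of each of these ratios therefore rests on a signal close to background. A_92_P028938 (TC295606) was not well above background on any Mu-inactive channel, and it was at least 7.59-fold higher in the Mu-active line on the scale of the fit and at least 10.7-fold higher after loess with Aquantile (limma adjusted p = 0.00610). The other unannotated probes among the 10 largest increases had ratios of 2.61 to 3.42.

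**Figure D2:**
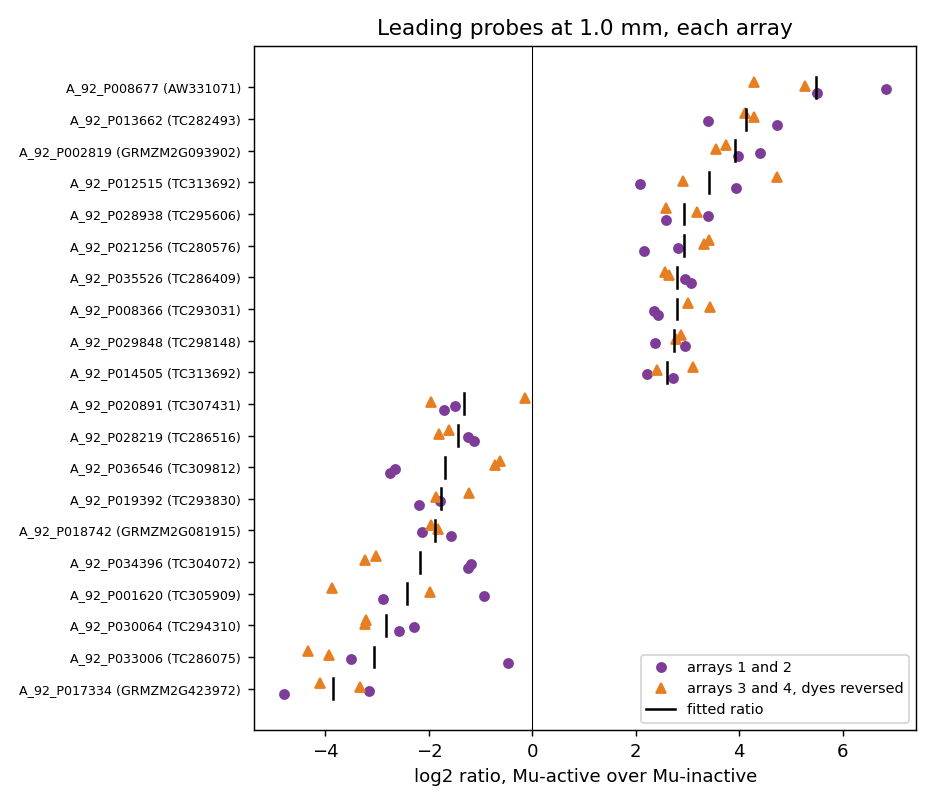
Log2 ratio of Mu-active over Mu-inactive at 1.0 mm (horizontal) for the 10 largest increases and the 10 largest decreases among called probes of 1 sign, with arrays 1 and 2 as circles, arrays 3 and 4, with reversed dyes, as triangles and the fitted ratio as a bar. Most probes hold their arrays together, whereas A_92_P033006 has array 1 at -0.47 and the others at -3.51 to -4.34.

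Among genes with a known product, pcr1 (GRMZM2G084958) had one of the increases. The gene is named for protochlorophyllide reductase, the light-dependent enzyme that makes chlorophyllide. It had 3245, 3915, 11857 and 29104 in the Mu-active line, against 1762, 1527, 2388 and 2467 in the Mu-inactive line. The Mu-active line was higher on every array, but by much more on arrays 3 and 4 than on arrays 1 and 2. The ratio was 2.03 ± 0.28 (limma adjusted p = 0.0221). Another gene annotated as a protochlorophyllide reductase, GRMZM2G073351, had a ratio of 0.46 ± 0.24 and was not called (limma adjusted p = 0.677). The list of photosynthesis and chlorophyll genes also had higher ratios on arrays 3 and 4 than on arrays 1 and 2. It is built from annotation words and leaves out pcr1 itself. None of its 19 probes was called, where 0.376% of all probes were, so a list of this size could hold no call by its size alone. Of the 19 probes 14 had a positive ratio, and their median was 0.28, against -0.00 over all probes. The median of this list was -0.26, -0.06, 0.56 and 0.91 on arrays 1 to 4, so unlike pcr1 it was below 0 on arrays 1 and 2. Arrays 3 and 4 carried the reversed dyes, and dye orientation cannot be told apart from these array pairs. The summed intensity of the list per array was 12510 to 91128 in the Mu-active line and 17378 to 31600 in the Mu-inactive line. The part of these genes in the result for pcr1 was not tested, and in whole anthers a change in the amount of green tissue and a change in RNA per cell cannot be told apart.

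GRMZM2G126821 (A_92_P008369), which has no protein annotation in the tables used, was among the most even differences. It had 692, 756, 731 and 664 in the Mu-active line, against 242, 246, 218 and 202 in the Mu-inactive line. The spread of each line over the arrays was small beside the gap between the lines. The ratio was 1.65 ± 0.11 (limma adjusted p = 0.000355). GRMZM2G082174 was represented by 2 called probes, with ratios of 1.98 ± 0.22 and 1.67 ± 0.17. The first of them had 1878, 1806, 3368 and 2949 in the Mu-active line and 573, 700.1, 670.2 and 519 in the Mu-inactive line. Its lowest Mu-active value lay above its highest Mu-inactive one.

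Other annotated genes had smaller increases. GRMZM2G043737, annotated with an RNA-binding plectin and S10 domain of the small ribosomal subunit, had a ratio of 1.16 ± 0.14 (limma adjusted p = 0.0100), with 3539 to 7528 in the Mu-active line against 1781 to 2832 in the Mu-inactive line. GRMZM2G014750 is annotated as Lupus La, a protein that binds the 3′ ends of RNA polymerase III transcripts. It had 1368, 1143, 1347 and 960.0 in the Mu-active line and 922, 772, 785 and 721 in the Mu-inactive line. The groups did not overlap, and the ratio was 0.58 ± 0.08 (limma adjusted p = 0.0200). GRMZM2G166166, annotated as cyclin-like, a domain of regulators of the cell cycle, had 1079, 798, 879 and 715 in the Mu-active line against 616, 525, 559 and 563 in the Mu-inactive line. Its ratio of 0.60 ± 0.10 was close to the threshold (limma adjusted p = 0.04997), and it was 1 of 18 probes in the cell cycle list to be called, where 0.276% of all probes were called higher. The probes of both annotated genes were as follows.
A_92_P000526 (GRMZM2G014750, Lupus La): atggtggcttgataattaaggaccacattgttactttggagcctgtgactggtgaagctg
A_92_P001289 (GRMZM2G166166, cyclin-like): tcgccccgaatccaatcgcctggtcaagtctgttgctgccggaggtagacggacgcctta

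The transcript CB278340 (A_92_P008142) is annotated only by a partial similarity (5%) to an F-box domain protein. That class marks proteins for ubiquitination. CB278340 had a ratio of 1.84 ± 0.25 (limma adjusted p = 0.0207), with 182 to 433 in the Mu-active line and 67.1 to 95.8 in the Mu-inactive line. It was the 1 probe called of 37 in the list of F-box proteins and ubiquitin ligases, where 0.276% of all probes were called higher. The median ratio of that list was -0.02. The serine carboxypeptidase GRMZM2G075676, a protease, had a ratio of 1.20 ± 0.13, and a second probe of its contig had 0.18 ± 0.06, not called. GRMZM5G869196, annotated for thiol-disulfide exchange, had a ratio of 1.21 ± 0.17. Its ratio was 0.92 and 0.58 on arrays 1 and 2, against 1.48 and 1.86 on arrays 3 and 4. TC279711 (A_92_P007639), weakly similar to an algal pherophorin, was not well above background on any Mu-inactive channel, and it was at least 3.21-fold higher in the Mu-active line on the scale of the fit and at least 4.42-fold higher after loess with Aquantile (limma adjusted p = 0.00512). It was 1 of 4 called probes with such a bound, of which the last was TC302378 (A_92_P017046), at least 2.13-fold and 2.82-fold higher on these scales (limma adjusted p = 0.00367), and no called decrease had one. The 2 transcripts without a gene model are identified by their probes.
A_92_P008142 (CB278340, F-box): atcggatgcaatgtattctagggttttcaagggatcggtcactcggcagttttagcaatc
A_92_P007639 (TC279711, pherophorin-like): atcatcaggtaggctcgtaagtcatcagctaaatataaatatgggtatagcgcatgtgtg

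The largest decrease among the called probes was that of GRMZM2G423972 (A_92_P017334), for which the tables used give no product. It had 167, 217, 224 and 226 in the Mu-active line, against 4654, 1928, 2241 and 3881 in the Mu-inactive line. The Mu-active values were even and the Mu-inactive values varied, with no overlap. The ratio was -3.85 ± 0.55 (limma adjusted p = 0.0246), and the ratio of -3.66 at 2.0 mm was called as well. GRMZM2G081915 (A_92_P018742), also without a product, had 1614, 771, 908 and 618 in the Mu-active line against 4825, 3398, 3219 and 2400 in the Mu-inactive line. Array 1 was the brightest in both lines, and the ratio held between -1.58 and -2.14 on every array, with a fitted value of -1.88 ± 0.21 (limma adjusted p = 0.00876). A_92_P019392 (TC293830) had 73.1 to 99.7 in the Mu-active line against 171 to 392.1 in the Mu-inactive line, with a ratio of -1.77 ± 0.11.

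The decrease of A_92_P033006 (TC286075), with a fitted ratio of -3.06 ± 0.47 (limma adjusted p = 0.0345), was not shared by all arrays. It had 3629, 424, 464 and 353 in the Mu-active line, against 5028, 4848, 7080 and 7121 in the Mu-inactive line. On array 1 the Mu-active value was close to the Mu-inactive one, while on the other arrays it was far lower.

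Among annotated genes, pho1 (GRMZM2G074158), the plastidial starch phosphorylase, which the sugar and starch list leaves out, had 2747, 1516, 1593 and 2165 in the Mu-active line and 4222, 2309, 2852 and 3341 in the Mu-inactive line. The ranges of the lines overlap across arrays, but the Mu-active line was lower on each array, by a ratio of -0.61 to -0.84. The fitted ratio was -0.67 ± 0.10 (limma adjusted p = 0.0337). GRMZM2G004694, a transporter of the major facilitator superfamily, which moves small solutes across membranes, had a ratio of -0.79 ± 0.10 (limma adjusted p = 0.0126). GRMZM2G153274, similar to a glycerophosphodiester phosphodiesterase, an enzyme of phospholipid breakdown, had 98.7 to 112 in the Mu-active line against 133 to 157 in the Mu-inactive line. Its ratio of -0.44 ± 0.05 (limma adjusted p = 0.0117) was small and even, and a second probe of the gene had 0.01 ± 0.06, not called.

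**Figure D3:**
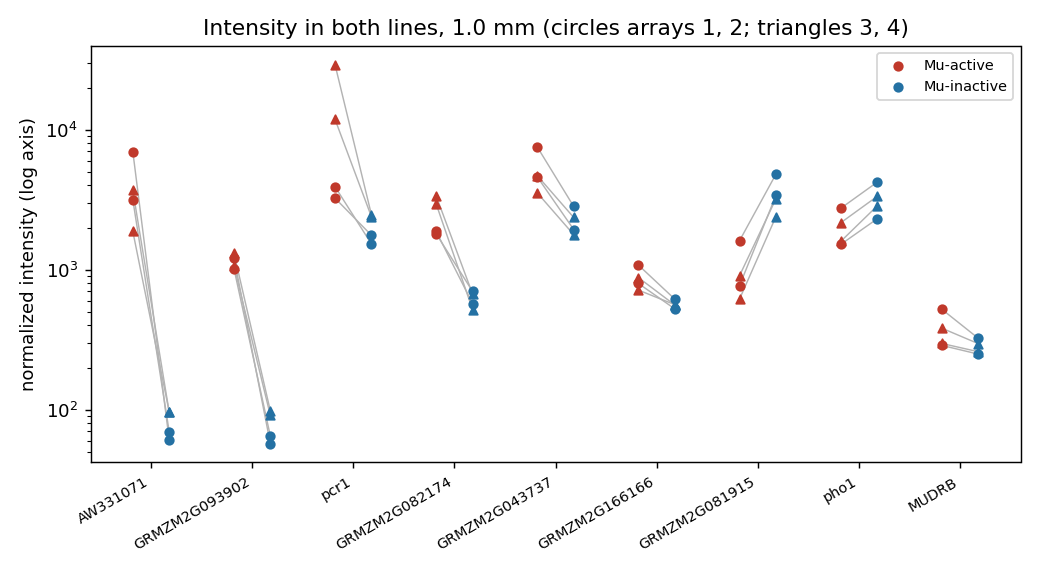
Normalized intensity (vertical, log axis) of 9 transcripts at 1.0 mm in the Mu-active line (red, left) and the Mu-inactive line (blue, right), with arrays 1 and 2 as circles, arrays 3 and 4 as triangles and a line joining the 2 channels of an array. pcr1 separates the lines most on arrays 3 and 4, pho1 is lower in the Mu-active line within every array, and the MUDRB probe is higher in the Mu-active line on each array but was not called.

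The probes of the transposon itself did not pass the test. The MUDRB probe (A_92_P034510) had 522, 288, 382 and 297 in the Mu-active line, against 324, 249.6, 297 and 259.7 in the Mu-inactive line. The Mu-active line was higher on each array, mostly through array 1, and the ratio was 0.36 ± 0.09 (limma adjusted p = 0.129). The MUDRA probe had 338, 308, 317 and 273 in the Mu-active line and 398, 333, 251 and 259 in the Mu-inactive line, with arrays 1 and 2 lower and arrays 3 and 4 higher in the Mu-active line and a fitted ratio of 0.02 ± 0.06. The MUDRA-21 probe had a ratio of -0.02 ± 0.11 and the MUDR-TIRA probe 0.16 ± 0.25, both with ratios of either sign among the arrays. The labels of the lines could not be checked by these probes. In the later anthers the MUDRB probe had ratios of 0.33 at 1.5 mm and 0.18 at 2.0 mm, not called. Of the 4 annotated Mutator transposon genes none was called, and their ratios lay between -0.01 and 0.04. Of these 4 probes 3 were ON. Their summed intensity per array was only 400 to 463 in the Mu-active line and 405 to 447 in the Mu-inactive line. Signals this dim cannot show that the transcripts were equal between the lines. GRMZM5G857936, an unclassified transposon protein, was the 1 called probe of 14 in the list of other transposons and retroelements. Of all probes 0.276% were called higher and 0.376% in either direction, and lists this small cannot show an effect by such counts. GRMZM5G857936 had 135, 207, 165 and 161 in the Mu-active line, against 67.0, 89.4, 98.6 and 85.3 in the Mu-inactive line. The groups did not overlap, and the ratio was 0.97 ± 0.15 (limma adjusted p = 0.0329).

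The remaining lists held few or no calls. Of the 562 probes in the 22 lists of annotated genes, 4 (0.712%) were called, all higher in the Mu-active line, against 0.276% of all probes called higher and 0.376% called in either direction. Each has been described above. None was called among the lists for RNA silencing and chromatin (7 probes), DNA repair (4), meiosis (2), histones (5), heat shock proteins (25), redox (42), flavonoids (11), respiration (13), cell wall (35), lipid transfer and tapetum (20), late pollen (7), defense (22), hormones (55), transcription factors (86), sugar and starch (27) and protein kinases (79). The nearest to the threshold was GRMZM2G311220, a calcium-dependent protein kinase, with a ratio of -0.43 ± 0.08 (limma adjusted p = 0.0509). Its ratios were -1.02, -0.72, 0.09 and -0.07 on arrays 1 to 4, so the difference lay on arrays 1 and 2. Cytokinin oxidase, which breaks down cytokinins, had a ratio of 1.53 ± 0.34 at GRMZM2G024476 (limma adjusted p = 0.110), with 88.7 to 584 in the Mu-active line against 67.8 to 90.4 in the Mu-inactive line. The heat shock factor GRMZM2G098696 had -1.18 ± 0.33 (limma adjusted p = 0.208).

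Transcripts that the study lists by anther cell type were described in the same way, from lists held in part. Nearly all members were ON, 1940 of 1998, 926 of 955, 1059 of 1075 and 810 of 811 in the order below. Among all ON probes 0.485% were called, and 0.987% in the brightest of the 5 intensity bins. The part of brightness in the shares below was not tested. Of 1998 archesporial probes, 10 were higher in the Mu-active line and 2 were lower, with a median ratio of 0.03. These calls were 0.601%, against 0.376% of all probes and 0.485% of all ON probes. Of 955 probes of the middle layer and tapetum, 3 were higher and 2 lower (0.524%), with a median of 0.00. Of 1075 probes of the epidermis and endothecium, 5 were higher and 4 lower (0.837%), with a median of -0.06, and 39.8% had a positive ratio. Of 811 probes of the connective and vascular tissue, 7 were higher and 2 lower (1.11%), with a median of 0.09, and 68.4% had a positive ratio, against 49.2% of all probes. This last shift was uneven. The list's median was 0.41 on array 1 and 0.06, -0.13 and 0.02 on arrays 2 to 4.

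**Figure D4:**
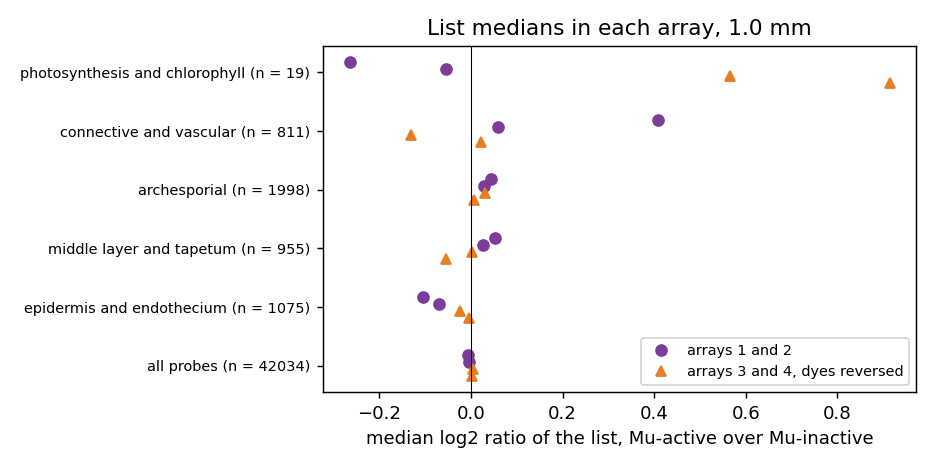
Median log2 ratio of Mu-active over Mu-inactive (horizontal) of 5 probe lists and of all probes, 1 point per array at 1.0 mm, with arrays 1 and 2 as circles and arrays 3 and 4, with reversed dyes, as triangles. The photosynthesis list runs between -0.26 and 0.91 and the connective and vascular list between -0.13 and 0.41, while the median of all probes stays near 0.

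The ratios of a pair of arrays agreed best within a dye orientation. Over all probes the correlation was 0.524 between arrays 1 and 2 and 0.402 between arrays 3 and 4, and -0.127 to 0.166 between arrays of opposite orientation. A dye term was called at 2502 probes. These correlations are across probes and have no p, and the labels do not say whether anything besides the dyes differed between the array pairs.

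A further class of probes had ratios that were very large on some arrays and near 0 on others. These were picked out after their values were seen, as probes with at least an 8-fold difference (a log2 ratio of 3) on some arrays and a ratio under 1 in size on the rest. There were 24 with large ratios that were all positive and 28 that were all negative, and 18 had large ratios of both signs. Of the probes of these kinds 1, TC286075, was called, where 0.376% of all probes were called. By the same ratios, 5 probes were at least 8-fold different in 1 direction on all 4 arrays, 4 positive and 1 negative, and 4 of these were called. Both kinds were sorted by the array ratios that enter the fit. Their counts of calls therefore follow in part from the sorting and are not a separate result.

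The exception of these 5 was A_92_P017274 (TC299646), which had the largest ratio of all probes. It had 20538, 21854, 52236 and 29212 in the Mu-active line, against 68.6, 61.0, 133 and 139 in the Mu-inactive line. The groups were far apart on every array, with ratios of 7.71 to 8.62. On arrays 1 and 2 the Mu-inactive values were under the ON cutoffs of 84.7 and 81.9, so the size of the ratio there rests on background. It was not called in the fit of all 12 arrays, with a ratio of 8.26 ± 2.42 (limma adjusted p = 0.245). In the later anthers the 1.5 mm arrays gave 7.32, 7.41, -6.60 and 6.96, and the 2.0 mm arrays 0.75, -6.27, 0.14 and 6.83. Their spread enters the SE. In a fit of the 1.0 mm arrays alone with a dye term the limma adjusted p was 0.0256.

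In the mixed probes the array at issue could be read in each line. A_92_P027432 (TC292099) had 27934, 117, 54132 and 30584 in the Mu-active line, against 142, 112, 255 and 169 in the Mu-inactive line. The Mu-active line was bright on 3 arrays and as dim as the Mu-inactive line on array 2. A_92_P009695 (DN830835) had 5746, 6136, 3978 and 81.2 in the Mu-active line and 87.7, 74.3, 103 and 87.5 in the Mu-inactive line, so that array 4 was the dim one. Its ratios at 2.0 mm were all negative, between -1.45 and -5.95. A_92_P015943 (GRMZM2G079491) was dim in the Mu-active line throughout, at 90.8 to 118, but in the Mu-inactive line it had 87.5, 104, 8904 and 8015. It was bright there only on arrays 3 and 4.

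A_92_P031216 and A_92_P034523 switched in both lines. A_92_P031216 (TC280899) had 135, 166, 40150.5 and 183 in the Mu-active line, against 157, 30376, 217 and 29570.3 in the Mu-inactive line. Array 3 was bright in the Mu-active line only, arrays 2 and 4 in the Mu-inactive line only, and array 1 in neither. At 2.0 mm its ratio was -6.17 to -7.82 on all 4 arrays. A_92_P034523 (TC298187) had 5520, 5862, 96.8 and 2722 in the Mu-active line and 122, 79.5, 3213 and 3530.3 in the Mu-inactive line. Each line was bright on some arrays and dim on others, in different combinations. The expansin GRMZM2G361064 (A_92_P006415), of a family of cell wall loosening proteins, had 95.5, 2217, 5481 and 6315 in the Mu-active line, against 4602, 2511, 2823 and 5277 in the Mu-inactive line. It was dim in 1 channel alone, the Mu-active one of array 1. Outside this class, a haem peroxidase, GRMZM2G089982, had 173, 129, 405 and 5501 in the Mu-active line and 3600.2, 3156, 1949 and 835 in the Mu-inactive line. Its ratio of -2.13 ± 0.77 was not called.

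**Figure D5:**
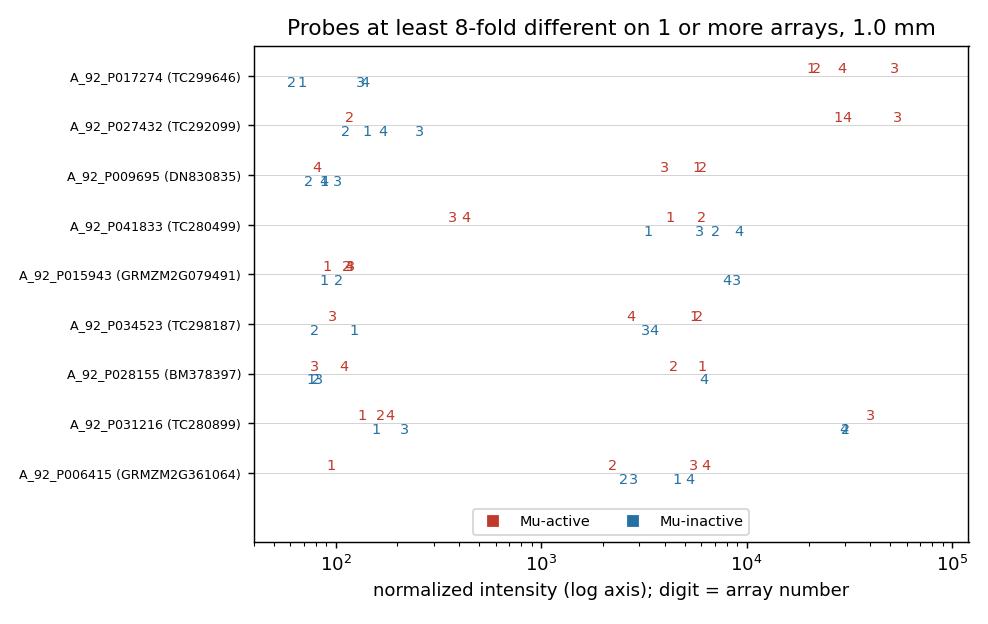
Normalized intensity (horizontal, log axis) of 9 probes at 1.0 mm chosen after their values were seen, with the array number printed at each value in the Mu-active line (red, above) and the Mu-inactive line (blue, below). A_92_P017274 is bright in the Mu-active line on all 4 arrays, and each of the others changes between dim and bright from array to array in at least one line.

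By the ON rule 30532 probes were ON in both lines, 1272 in the Mu-active line only, 794 in the Mu-inactive line only and 9436 in neither. Probes ON in one line only sat close to the cutoff. Their median ratio was 0.03 for those of the Mu-active line and -0.04 for those of the Mu-inactive line, and 13 and 3 of them were called. With a cutoff of 5 SD, 1224 were ON in the Mu-active line only and 777 in the Mu-inactive line only. When all 4 arrays of one line and none of the other had to be ON, 9 probes remained for the Mu-active line and 3 for the Mu-inactive line, with ratios of -0.28 to 0.68, and none was called.

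Where a called probe had a second probe on the same contig or gene model, the second often differed. There were 31 distinct pairs over 28 called probes. In 23 both probes were ON, in 15 of these with the same sign, and in 3 both were called. TC313692 had 2 called probes, at 3.42 ± 0.35 and 2.61 ± 0.28. TC280576 had one at 2.93 ± 0.20 and another at -0.66 ± 0.34, not called. Contig MAGI4_80045 had probes at 0.83 ± 0.10 and 0.72 ± 0.08, both called, and 2 more at -0.00 ± 0.05 and -0.22 ± 0.09, not called. Which transcripts a probe detects beyond its contig was not tested.

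The later anthers show which differences between the lines were also present there. They came from other arrays and share with the 1.0 mm arrays the normalization, the fitted dye effect and the pooled variance. Of the 116 probes higher at 1.0 mm in the Mu-active line, 92 had the same sign at 1.5 mm and 88 at 2.0 mm, and 17 and 22 were called in the same direction. Of the 42 lower, 32 had the same sign at 1.5 mm and 29 at 2.0 mm, with 7 and 12 called in the same direction. The sizes were smaller there. In the direction of the call, the median ratio of the 116 was 0.81 at 1.0 mm, 0.17 at 1.5 mm and 0.18 at 2.0 mm. That of the 42 was 0.78, 0.26 and 0.24. The share of same signs over all probes was not counted. Over all probes 198 (0.471%) were called at 1.5 mm and 364 (0.866%) at 2.0 mm. The ratio was called in 1 direction at all 3 lengths for 20 probes, of which 15 were higher in the Mu-active line and 5 were lower. TC313692 (A_92_P012515) was one, with ratios of 3.42, 4.34 and 4.39 from 1.0 mm to 2.0 mm. TC282493 had 4.13, 3.56 and 3.09. TC294310 (A_92_P030064) was lower in the Mu-active line throughout, with -2.83, -2.99 and -3.89.

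For 117 of the 158 probes the difference was called at 1.0 mm only, which does not show that the ratio changed. Tested directly, the ratio differed between 1.0 mm and 1.5 mm at 4 probes (0.00952%) and between 1.0 mm and 2.0 mm at 22 probes (0.0523%), 11 of these with a higher and 11 with a lower ratio at 1.0 mm. All 4 probes of the first comparison were also in the second. TC293031 (A_92_P008366) was one, with 2.80 at 1.0 mm, 0.29 at 1.5 mm and -0.18 at 2.0 mm. GRMZM2G126821 had 1.65, -0.39 and -0.34, and TC293830 had -1.77, -0.08 and 0.00. GRMZM2G087662 had -0.55 at 1.0 mm (limma adjusted p = 0.00927), 0.87 at 1.5 mm, where it was called in the opposite direction, and 0.16 at 2.0 mm. At aoc1 (GRMZM2G077316), named for allene oxide cyclase of jasmonic acid synthesis, the ratio was -0.40 ± 0.12 at 1.0 mm, not called, and 1.33 at 2.0 mm, called, with an adjusted p of 0.0130 for the difference in limma.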

How the data were processed

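Anther RNA of both lines was hybridized together to 2-colour Agilent arrays of a maize design, with the dyes exchanged between arrays. The authors deposited 1 Feature Extraction 9.5.3.1 scanner file per array, holding for each spot and channel a median foreground intensity, neither background subtracted nor normalized. The same deposited files hold the software's log10 ratio of red over green, which served as an alternative. In addition, the authors deposited 1 log2 ratio per probe and anther length, of unstated direction, with a median of -0.0017 over the probes at 1.0 mm, set against the ratios computed here and not tested. The direction came from supplementary intensities named by line. Columns of other samples numbered 0.

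From these files both channels of all 12 arrays were normalized in R 4.3.3 with limma 3.58.1, using loess inside each array and then quantile normalization of all channels together, with no background subtracted, after the study's methods (which write quartile, read here as quantile). The log2 ratio was fitted with 1 coefficient per anther length and a dye term, leaving out spots flagged as outliers, and p-values were adjusted over 42034 probes. A probe was ON above the mean plus 3 SD of 153 negative control spots, in at least 3 of 4 arrays. Normalized values were kept when an array was left out of a fit. No sequencing depth applies, and the number of arrays limits the precision.

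Gene models and products came from the study's supplementary tables for 7743 probes, and 5319 of 6825 gene models were found in the RefSeq table of Zm-B73-REFERENCE-NAM-5.0. Named probes are the 10 highest and 10 lowest ratios among called probes of 1 sign, the same among those annotated with a protein, the MuDR probes, the 3 lowest p of each list and the 3 lowest p each way for the change between lengths. Other probes in the text were named after their values were seen. Gene lists were built from words in the annotation. Members and lists were chosen with earlier results of these data known. The lines are paired by the array. On simulated data, the fit at 1.0 mm recovered 70% of 100 probes given a log2 change of 1 and 94% of 100 given a log2 change of 2 among 42034 probes, and made 10 false calls. The changed probes were drawn from the brighter probes only, and the simulated noise was independent between arrays. The recovery therefore does not cover dim probes, arrays that switch or the likeness of arrays within a dye orientation.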

Additional observations from a re-analysis of the deposited data

Results flagged for a closer look

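At pho1, 1 array stood apart from the others, with a ratio of -0.84 on array 3 against -0.61 to -0.63 on the rest. The kelch motif gene GRMZM2G412674 (A_92_P040146), of the F-box list, had 0.88 on array 1 against 0.26 to 0.35 on the rest, and was not called (0.45 ± 0.12, limma adjusted p = 0.181). Among groups of 4, chance sets such a value apart in about 5% of cases.

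The ratio of Mu-active over Mu-inactive differed between 1.0 mm and 1.5 mm at 4 probes and between 1.0 mm and 2.0 mm at 22 probes, by a contrast in the limma fit. Anther length and slide cannot be told apart.

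The spike-in controls, which no comparison used, shifted between the lines. With the ratios scaled to the 10 spike-in sequences instead of to the maize probes, all ratios at 1.0 mm would move by 0.46 ± 0.61 (SD, n = 4), by 1.18, 0.46, -0.32 and 0.51 on arrays 1 to 4. The shift at 1.5 mm would be -0.34 ± 0.29 and at 2.0 mm 0.14 ± 0.51 (SD, n = 4 each). The spike-in sequences of an array differed from each other by an SD of 0.053 about their shift.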

How the results depend on the processing

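The counts of called probes depended on the fit. Against 116 probes that were higher in the Mu-active line and 42 that were lower, loess alone gave 257 and 104, median centring 71 and 31, the Feature Extraction ratio 62 and 14, and the 1.0 mm arrays alone 16 and 12 with a dye term and 6 and 1 without. An intensity trend with robust moderation gave 9 and 2, all among the 158. Normexp, no dye term, ON probes only and outlier spots kept gave 82 to 143 and 28 to 56. The array pairs the lines, and with no replicate block, as 8 separate channels, 20 were higher and 12 lower. Labels cannot tie replicate numbers to arrays, so no other pairing was tried. With each 1.0 mm array left out in turn, 33 to 76 were higher and 16 to 42 lower, fewest without array 3 (49 in all, against 73, 101 and 109 without arrays 1, 2 and 4), and 30 probes stayed called each time, 22 higher and 8 lower. All 158 kept their sign in each of these alternatives, and 2, GRMZM2G126821 and TC286409, stayed called in all 15. The median called probe stayed called in 6. A_92_P008677 and pcr1 stayed called in 9, GRMZM2G093902 in 8, GRMZM2G423972 in 7, Lupus La in 6, and the cyclin-like gene and pho1 in 5. None of these genes stayed called with each array left out in turn, whereas TC282493, called in 13, did. Under spike-in scaling, chosen after seeing the data, which moves the median of all probes to 0.46, 739 were higher and 86 lower, and 154 of 158 kept their sign. The share of higher calls, 73.4%, became 57.1% and 85.7% with 1.0 mm arrays alone (with and without a dye term), 62.5% with no replicate block, 61.5% without array 4 and 89.6% under spike-in scaling, and if all signs turned it would be 26.6%. At the unadjusted threshold of the methods, against 533 and 384, the Feature Extraction ratio gave 1254 and 909, spike-in scaling 5606 and 216, and leaving out an array 529 to 661 and 372 to 576. Probes ON in the Mu-active line only, 1272, became 9 when 4 arrays against 0 were required, 2358 with loess and Aquantile and 1173 to 2163 without 1 array, most without array 2. Those of the Mu-inactive line, 794, became 3 and 787 to 1734, with 1425, 1734 and 1445 without arrays 1, 3 and 4. Probes whose ratio differed from 1.5 mm, 4, became 8 with loess alone, 7 with no dye term and 3 to 15 without 1 array (11, 9 and 15 without arrays 1, 2 and 4). Those for 2.0 mm, 22, became 10 to 29 (11 and 10 without arrays 2 and 3). These alternatives for the change between lengths were also chosen after seeing the data. Of 1584 alternative values for 100 named probes, 1351 kept direction and side of the threshold, 198 lost the call, 11 gained it and 5 deposited ratios moved by more than 1 SD. The sign turned in 19, all of probes not called. Median centring turned A_92_P000865 to -0.021, A_92_P004949 to -0.061, A_92_P009128 to 0.034, A_92_P019862 (MUDRA-21) to 0.0091 and A_92_P034829 to 0.090, loess alone turned A_92_P034829 to 0.00019, and the Feature Extraction ratio turned A_92_P000795 to 0.081. Without 1 array, A_92_P000525 ran from -0.63 to 0.063, A_92_P000795 from -0.044 to 0.0012, A_92_P001166 from -0.14 to 0.014, A_92_P009128 from -0.091 to 0.011, A_92_P012404 (MUDR-TIRA) from -0.098 to 0.40, A_92_P016545 from -0.0059 to 0.055, A_92_P019862 from -0.14 to 0.12, A_92_P031891 (MUDRA) from -0.035 to 0.063, A_92_P032847 from -0.31 to 0.054 and A_92_P034829 from -0.060 to 0.025. The cause of these changes was not tested. Signal near background limits dim probes to bounds.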

Other observations

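Of the gene models of called probes, 33 could be placed in the gene order of the RefSeq annotation of Zm-B73-REFERENCE-NAM-5.0. There were 7 neighbouring pairs with at most 100 genes between them, and 6 of these had the same direction. Of 17 pairs further apart, 13 had the same direction. GRMZM2G084429 and GRMZM2G386228 are adjacent, with 0 genes between them, and both were higher in the Mu-active line. The first had a ratio of 1.03 ± 0.11, with 17107, 17179, 18626 and 19332 in the Mu-active line and 6729, 11020.2, 9608 and 8436 in the Mu-inactive line, and the second a ratio of 0.36 ± 0.05. GRMZM2G106960 and GRMZM2G064767 have 4 genes between them, and both were lower in the Mu-active line, with ratios of -0.68 and -0.88. On 1 chromosome 3 called genes followed each other in the order GRMZM2G043737 (1.16), GRMZM5G857936 (0.97) and GRMZM2G075676 (1.20), with 68 and 30 genes between them. The 8 ON probes between GRMZM2G043737 and GRMZM5G857936 had a median ratio of -0.15, and the 2 between GRMZM5G857936 and GRMZM2G075676 one of -0.07.

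GRMZM2G141707 had a ratio of 1.66 ± 0.27 that differed by array pair, with 0.73 and 0.69 on arrays 1 and 2 and 2.22 and 3.02 on arrays 3 and 4. Its normalized intensity was 511, 456, 1465 and 2116 in the Mu-active line, against 308, 283, 315 and 260.4 in the Mu-inactive line.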
